A study of Homo sapiens with 18 samples.

Results

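The 10 genes described here form the core of human polyamine metabolism: ODC1, AMD1, SRM and SMS, which make polyamines, SAT1, SMOX and PAOX, which break them down, and OAZ1, OAZ2 and AZIN1, which set how much ODC1 protein is kept. They were taken by symbol from a fixed list, a rule that uses no measured value, although the list was chosen with earlier results of these data known. All 10 were found among the 63677 gene identifiers of the deposited tables. The data are bulk polyadenylated RNA of xenograft tumours, that is, tumours grown in mice from human neuroblastoma cell lines. The lines were KELLY, LAN-1 and SKNAS, each with 3 Hmx1 libraries and 3 control libraries, 18 libraries in 6 groups. No treatment is given for any group beyond the arm name, and neither the direction in which Hmx1 was changed nor the species of its sequence is stated. The age and strain of the mice are not stated either. Nothing ties the 3 libraries of a group to different mice, so the p-values rest on a spread that could be technical.

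Polyamines (putrescine, spermidine and spermine) are small positively charged molecules that bind nucleic acids and that dividing cells need. ODC1, ornithine decarboxylase, makes putrescine from ornithine, and AMD1, S-adenosylmethionine decarboxylase, provides the aminopropyl groups with which SRM (spermidine synthase) and SMS (spermine synthase) build the longer forms. Antizymes, encoded by OAZ1 and OAZ2, bind ODC1 protein and send it to the proteasome, and AZIN1, an inactive relative of ODC1, takes up antizyme and so spares ODC1. SAT1 acetylates spermidine and spermine for export or breakdown, PAOX oxidizes the acetylated forms, and SMOX oxidizes spermine directly. In neuroblastoma, ODC1 is a textbook target of MYCN, the oncogene that is amplified in KELLY and LAN-1 and not in SKNAS. Much of the control of ODC1, AMD1, SAT1 and the antizymes acts on translation and protein stability, which RNA levels do not show.

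The sequence that MYC and MYCN bind with their partner MAX is the E-box CACGTG, which reads the same on both strands. It was searched for in the RefSeq windows (GRCh38.p14) from 250 bases before to 50 bases after a gene's start. Windows were found for 7 of the 10 genes, SMOX, PAOX and AZIN1 being the others. Of the 10 windows, 2 held the motif: 1 copy in the window of SRM and 2 copies in that of the second start of ODC1. Of all 35116 windows, 7.26% held it and 0.664% held 2 or more copies. The windows of AMD1, SMS, SAT1, OAZ1 and OAZ2 held no CACGTG, which says only that these letters are not in them. The 3 copies, all that were found in these windows, are shown with the motif in capitals and 12 bases on either side. Whether the motif bears on the RNA levels of these genes was not tested. All 3 are written 5′ to 3′ on the minus strand, the coding strand of both genes, and a match of letters is a description, not a bound site.
SRM, chr1:11060200-11060229: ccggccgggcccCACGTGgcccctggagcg
ODC1, chr2:10448024-10448053: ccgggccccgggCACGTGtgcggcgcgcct
ODC1, chr2:10447990-10448019: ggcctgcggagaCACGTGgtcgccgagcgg

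Values are TPM, a deposited measure of transcript abundance that corrects for gene length and sums to a fixed total in every library. Depth is unknown because TPM keeps none. Mitochondrial transcripts took 4.47% to 33.8% of a library, and the top of that range was KELLY control replicate 1, which stood apart from the other KELLY libraries with a size factor of 0.580 against 0.693 to 0.987. HMX1, which names the arm, lay at 4.68 to 6.40 TPM in Hmx1 and 3.92 to 7.72 TPM in control tumours of KELLY, at 11.4 to 16.5 TPM in Hmx1 and 11.1 to 11.9 TPM in control tumours of LAN-1, and at 0.193 to 1.24 TPM in SKNAS Hmx1 tumours, while all 3 SKNAS controls listed it at 0. Of 13 noradrenergic neuroblast markers, 12 or 13 reached 1 TPM in every group, with TH under 1 TPM in SKNAS Hmx1 tumours and TFAP2B in both LAN-1 arms. Their sums differed between lines. They were 6467 to 7089 TPM in KELLY Hmx1 and 4476 to 7753 TPM in KELLY control libraries. In LAN-1 they were 4008 to 4253 TPM in Hmx1 and 4814 to 5228 TPM in control libraries. In SKNAS they were 2399 to 2807 TPM in Hmx1 and 2102 to 2787 TPM in control libraries. Mesenchymal neuroblastoma markers summed to at most 322 TPM in KELLY and LAN-1 and to at least 491 TPM in SKNAS libraries. Fibroblast markers summed to 803 to 896 TPM in SKNAS Hmx1 and 1135 to 1336 TPM in SKNAS control libraries and to at most 169 TPM in the other lines, where leukocyte markers summed to at most 1.60 TPM. Muscle, endothelial, erythroid and adipocyte lists reached at most 29.4, 8.70, 6.21 and 0.940 TPM in any library. MYCN averaged 1472 ± 347 TPM in KELLY Hmx1 and 1424 ± 533 TPM in KELLY control tumours, 787 ± 54.0 TPM in LAN-1 Hmx1 and 867 ± 30.5 TPM in LAN-1 control tumours, and 0.0502 ± 0.0507 TPM in SKNAS Hmx1 and 0.0469 ± 0.0448 TPM in SKNAS control tumours (SD, n = 3 each).

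Between Hmx1 tumours and controls of the same line, SRM in SKNAS was the only one of the 10 genes to pass the test in any line. Spermidine synthase RNA had 203, 187 and 194 TPM in the 3 SKNAS Hmx1 libraries, against 143, 128 and 143 TPM in the 3 SKNAS controls. All Hmx1 values lay above all control values. The means were 194 ± 8.15 and 138 ± 8.80 TPM for SKNAS Hmx1 and SKNAS control tumours (SD, n = 3 each), and SRM rose by 0.49 (SE 0.13, adjusted p = 0.0198) in limma on log2(TPM + 1), with Benjamini-Hochberg adjustment over all 18650 genes tested. All later differences are on this log2 scale and from this test unless another is named. In bulk tumours a change in the share of cells of a type and a change in RNA per cell cannot be told apart. The call was lost under median-ratio scaling, at 0.50 (adjusted p = 0.0879). It was also lost without SKNAS control replicate 2, at 0.44 (adjusted p = 0.0923), without SKNAS Hmx1 replicate 1, at 0.46 (adjusted p = 0.0834), and without SKNAS Hmx1 replicate 3, at 0.50 (adjusted p = 0.0598). SRM did not pass in KELLY, with 234, 207 and 223 TPM in Hmx1 and 254, 249 and 191 TPM in control tumours, nor in LAN-1, with 216, 224 and 191 TPM in Hmx1 and 215, 219 and 200.1 TPM in control tumours. The difference between lines in the Hmx1 effect was -0.55 (SE 0.18, adjusted p = 0.106) for KELLY minus SKNAS and -0.50 (SE 0.18, adjusted p = 0.156) for LAN-1 minus SKNAS, and neither passed. The first passed without KELLY control replicate 3, at -0.68 (adjusted p = 0.0325), under quantile normalization, at -0.78 (adjusted p = 0.0128), and without mitochondrial transcripts, at -0.67 (adjusted p = 0.0288). The second passed with the compared groups alone and with library weights.

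Other measures moved with the SRM difference in SKNAS. MYC, a relative of MYCN, fell to 4.25 ± 0.236 TPM in SKNAS Hmx1 tumours, against 20.6 ± 7.33 TPM in SKNAS controls, a log2 difference of -1.98 (SE 0.23, adjusted p = 1.40e-05). The summed level of 9 mesenchymal neuroblastoma markers was 491 to 545 TPM in SKNAS Hmx1 and 721 to 785 TPM in SKNAS control libraries, 9 and 8 of which reached 1 TPM (FOSL1 stayed under it in the controls). All 8 fibroblast markers reached 1 TPM in both arms, with the sums given above. The 6 macrophage and leukocyte markers summed to 189.5 to 287 TPM in SKNAS Hmx1 and 77.1 to 105 TPM in SKNAS control libraries. Of these 6, 2 reached 1 TPM in SKNAS Hmx1 libraries (PTPRC and CD68), which therefore make up nearly all of the sum there. In SKNAS control libraries 3 did (PTPRC, CD68 and CD14), so CD14 reached 1 TPM in the controls only. CSF1R, AIF1 and ITGAM stayed under 1 TPM in every library. Their part in the SRM difference was not tested.

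By number, 0 of 10 members passed in KELLY, where 0.0912% of all genes tested did, 0 of 10 in LAN-1 (0.45% of all genes) and 1 of 10 in SKNAS (8.76% of all genes). These shares are near the background of each comparison. At an unadjusted p under 0.05 in limma, 1 member passed in KELLY (OAZ1), 0 in LAN-1 and 2 in SKNAS (SRM and PAOX). The share of all genes at that unadjusted threshold was not computed, so these counts have no background beside them. The mean Hmx1 effect over the 3 lines was called for 0 members, beside 3.54% of all genes. It had an unadjusted p under 0.05 for 0 members. The 3 differences between lines in the Hmx1 effect were likewise called for 0 members. Among all genes, 0.209%, 4.85% and 4.99% were called for KELLY minus LAN-1, KELLY minus SKNAS and LAN-1 minus SKNAS. At an unadjusted p under 0.05 these differences had 0, 3 and 2 members, again with no share of all genes to set beside them. The median log2 change of the 10 members was 0.09 in KELLY, -0.01 in LAN-1 and -0.08 in SKNAS, against 0.02, -0.05 and 0.00 for all genes tested.

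ODC1, the entry enzyme, had the narrowest spread in LAN-1: 455, 459 and 462 TPM in Hmx1 tumours against 472, 463 and 461 TPM in controls. The 2 arms overlapped, and the log2 difference was -0.02 (SE 0.18, adjusted p = 1). In KELLY it had 447, 371 and 333 TPM in Hmx1 and 265, 511 and 406 TPM in control tumours, a log2 difference of 0.00 (SE 0.18, adjusted p = 1), with the lowest and the highest of these 6 values both in the control arm. In SKNAS the 3 Hmx1 libraries, at 249, 241 and 278 TPM, all lay above the 3 controls, at 239, 230.0 and 210.1 TPM, and the log2 difference of 0.18 (SE 0.18, adjusted p = 0.729) did not pass. Members whose Hmx1 and control libraries did not overlap numbered 2 of 10 in KELLY (SMS and OAZ1), 3 in LAN-1 (SMS, OAZ1 and OAZ2) and 4 in SKNAS (ODC1, AMD1, SRM and SMS). Among all genes tested that share was 6.67%, 15.8% and 30.9% in KELLY, LAN-1 and SKNAS.

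**Figure D1:**
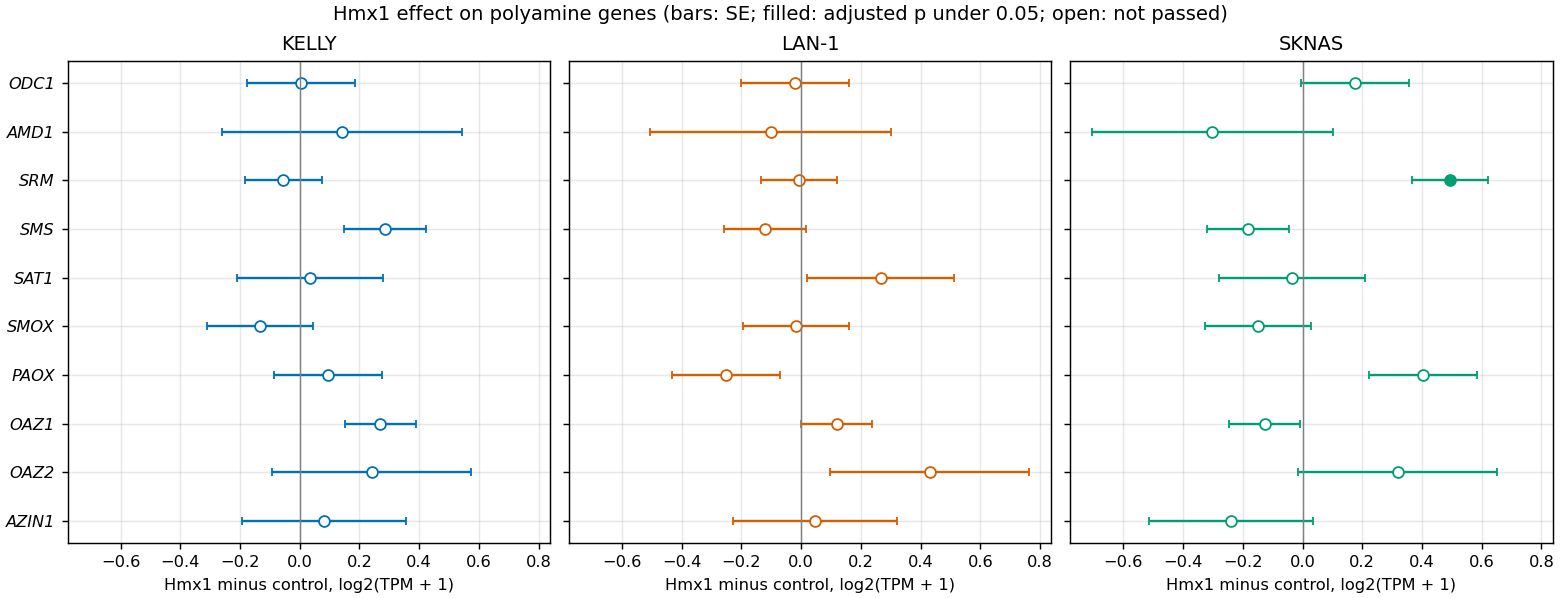
Log2 difference between Hmx1 and control tumours for the 10 polyamine genes in each line, from limma on log2(TPM + 1). Points are estimates, bars are SE, and filled points have an adjusted p under 0.05, which only SRM in SKNAS (0.49) reached.

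OAZ1, the main antizyme, had 398, 375 and 486 TPM in KELLY Hmx1 tumours against 358, 328 and 352 TPM in KELLY controls, and 646, 693 and 650.1 TPM in LAN-1 Hmx1 tumours against 590.1, 635 and 607 TPM in LAN-1 controls. Hmx1 libraries were the higher ones without overlap in both lines. The log2 differences of 0.27 (SE 0.12, adjusted p = 0.686) and 0.12 (SE 0.12, adjusted p = 1) did not pass, nor did that of SKNAS, where the arms overlapped, at -0.13 (SE 0.12, adjusted p = 0.684). SMS had 246, 254 and 227 TPM in KELLY Hmx1 and 154, 225 and 226 TPM in KELLY control tumours, a log2 difference of 0.29 (SE 0.14, adjusted p = 0.739). In the other 2 lines its Hmx1 libraries were the lower ones, with 289.8, 315 and 312 TPM against 335, 326 and 335 TPM in LAN-1 controls, and 338, 345 and 366 TPM against 407, 372 and 412 TPM in SKNAS controls. Those log2 differences were -0.12 (SE 0.14, adjusted p = 1) and -0.18 (SE 0.14, adjusted p = 0.577).

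OAZ2, the second antizyme gene, had 1 high library in the Hmx1 arm of each line. It was listed at 34.5, 33.0 and 59.8 TPM in KELLY Hmx1 against 22.4, 45.6 and 39.7 TPM in KELLY control libraries. In LAN-1 it had 59.3, 59.0 and 107.7 TPM in Hmx1 against 52.3, 55.8 and 52.1 TPM in control libraries, and in SKNAS 128, 57.5 and 51.3 TPM in Hmx1 against 51.2, 60.9 and 62.1 TPM in control libraries. The deposited coverage of the gene singled out the same libraries, with 15, 13.9 and 29.6 in KELLY, 24.0, 23.2 and 44.0 in LAN-1 and 53.6, 21.9 and 22.2 in SKNAS Hmx1 tumours. Its log2 differences were 0.24 (SE 0.33, adjusted p = 1), 0.43 (SE 0.33, adjusted p = 0.960) and 0.32 (SE 0.33, adjusted p = 0.736) in KELLY, LAN-1 and SKNAS. Without LAN-1 Hmx1 replicate 3 the LAN-1 difference was 0.15 (adjusted p = 1), and without SKNAS Hmx1 replicate 1 that of SKNAS was -0.09 (adjusted p = 0.977).

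The breakdown genes gave no call in any arm comparison. PAOX had 7.62, 7.05 and 6.76 TPM in SKNAS Hmx1 against 4.49, 4.32 and 6.98 TPM in SKNAS control libraries, with 1 control inside the Hmx1 range. Its log2 difference was 0.40 (SE 0.18, adjusted p = 0.234). SMOX had log2 differences of -0.13, -0.02 and -0.15 in KELLY, LAN-1 and SKNAS, each with an SE of 0.18. Those of SAT1 were 0.03, 0.27 and -0.04 with an SE of 0.25. AZIN1 had 0.08, 0.05 and -0.24 with an SE of 0.27, and AMD1 0.14, -0.10 and -0.30 with an SE of 0.40. None of these 12 differences passed.

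The lines differed in more members than the arms did. Between KELLY and LAN-1 control tumours 5 of 10 members were called, 0 higher and 5 lower in KELLY, beside 51.8% of all genes tested, 13.6% higher and 38.2% lower. Between KELLY and SKNAS control tumours 7 of 10 members were called, 2 higher and 5 lower in KELLY, beside 65.7% of all genes tested, 16.1% higher and 49.5% lower. Between LAN-1 and SKNAS control tumours 7 of 10 members were called, 3 higher and 4 lower in LAN-1, beside 52% of all genes tested, 20.5% higher and 31.5% lower. The Hmx1 tumours share no library with the control tumours. Between KELLY and LAN-1 Hmx1 tumours 4 of 10 members were called, 0 higher and 4 lower in KELLY, beside 49.9% of all genes tested, 16% higher and 33.9% lower. Between KELLY and SKNAS Hmx1 tumours 7 of 10 members were called, 2 higher and 5 lower in KELLY, beside 64.8% of all genes tested, 16.1% higher and 48.7% lower. Between LAN-1 and SKNAS Hmx1 tumours 5 of 10 members were called, 2 higher and 3 lower in LAN-1, beside 53.1% of all genes tested, 18.9% higher and 34.2% lower. These shares are near the background, so the counts say nothing particular of the polyamine genes.

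TPM is relative, and the median gene was itself lower in KELLY: the median log2 difference of all genes tested was -0.34 for KELLY minus LAN-1, -0.54 for KELLY minus SKNAS and -0.18 for LAN-1 minus SKNAS in control tumours. The medians of the 10 members were -0.68, -0.69 and -0.19 there. Those of all genes were close to 0 under median-ratio scaling (0.02, 0.00 and -0.04). Fibroblast, leukocyte and mesenchymal markers summed higher in SKNAS than in the other lines, and noradrenergic markers summed lower there. Their part in the differences to SKNAS was not tested.

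**Figure D2:**
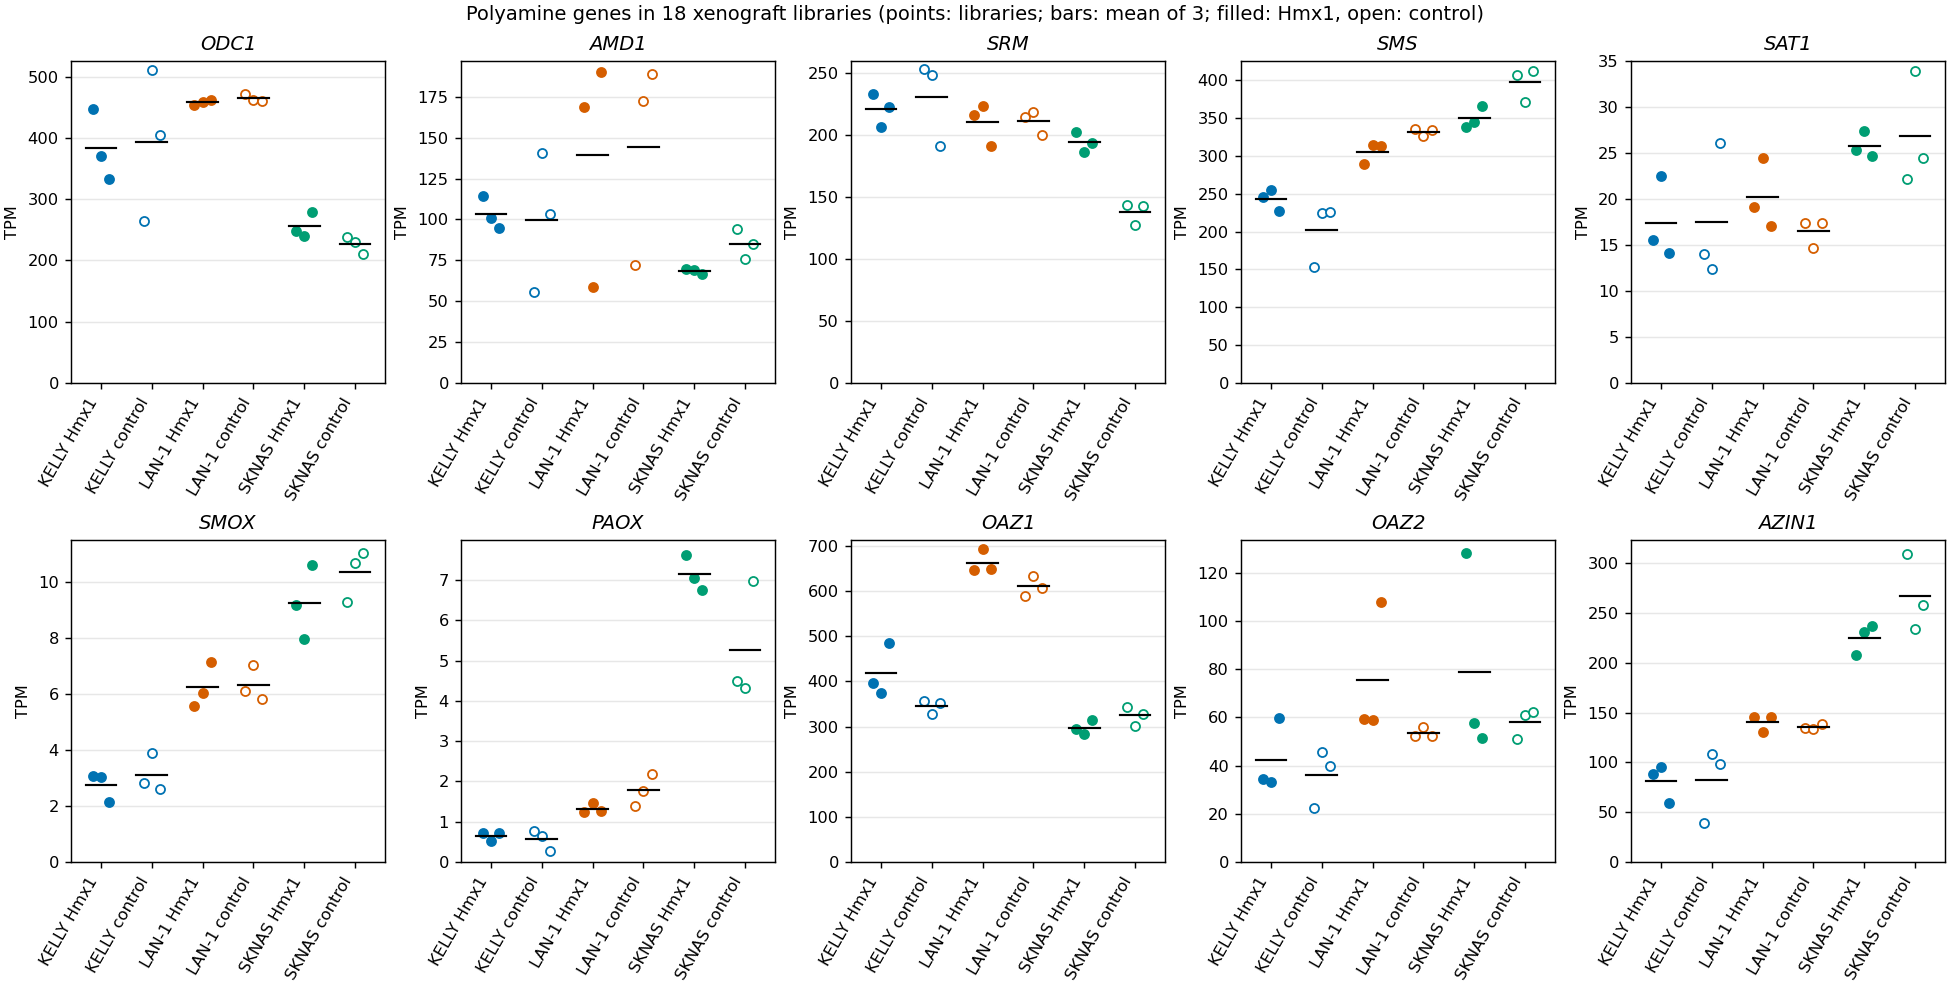
TPM of each polyamine gene in all 18 libraries, by line and arm. Points are libraries (filled for Hmx1, open for control), horizontal bars are the mean of 3, and each panel has its own axis from 0. ODC1 sits between 333 and 511 TPM in all KELLY and LAN-1 libraries except KELLY control replicate 1 (265 TPM), and between 210.1 and 278 TPM in SKNAS.

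Among the synthesis genes, ODC1 was higher in both MYCN-amplified lines. It averaged 394 ± 123.5 TPM in KELLY and 465 ± 6.17 TPM in LAN-1 control tumours, against 226 ± 14.8 TPM in SKNAS controls (SD, n = 3 each). KELLY control replicate 1, the lowest of the 12 KELLY and LAN-1 libraries, still lay above every SKNAS control. ODC1 rose by 0.75 (SE 0.18, adjusted p = 0.00162) in KELLY and by 1.04 (SE 0.18, adjusted p = 0.000115) in LAN-1 relative to SKNAS. In Hmx1 tumours it averaged 384 ± 58.4, 458 ± 3.58 and 256 ± 20.0 TPM in KELLY, LAN-1 and SKNAS, with log2 differences to SKNAS of 0.57 (SE 0.18, adjusted p = 0.0103) and 0.84 (SE 0.18, adjusted p = 0.000794). The KELLY call in the Hmx1 arms was lost without KELLY Hmx1 replicate 1, at 0.46 (adjusted p = 0.0568). In all other alternatives run, rescaling included, these 4 ODC1 differences kept their call and direction. SKNAS was the only line without MYCN amplification, so the amplification and the other differences between the lines cannot be told apart.

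KELLY and LAN-1 were not told apart in ODC1. The log2 difference KELLY minus LAN-1 was -0.29 (SE 0.18, adjusted p = 0.189) in control and -0.27 (SE 0.18, adjusted p = 0.235) in Hmx1 tumours, and it became a call in the controls without KELLY control replicate 2, at -0.50 (adjusted p = 0.0135), and with library weights. KELLY controls were spread, at 265, 511 and 406 TPM. Under median-ratio scaling they averaged 495 ± 33.1 in KELLY and 429.7 ± 7.96 in LAN-1, so the order of these 2 lines turned with the scaling while the difference stayed uncalled. MYCN itself was higher in KELLY than in LAN-1 control tumours, by 0.65 (SE 0.21, adjusted p = 0.0158). Whether its level bears on that of ODC1 was not tested.

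AMD1 did not pass in any line comparison and was the most divided member. In LAN-1 it had 168, 58.9 and 190.1 TPM in Hmx1 tumours and 71.8, 172 and 189 TPM in controls. LAN-1 Hmx1 replicate 2 and control replicate 1 lay near the SKNAS libraries, which had 69.8, 69.1 and 66.4 TPM in Hmx1 and 94.0, 75.7 and 85.0 TPM in control tumours, and the other 4 LAN-1 libraries between 168 and 190.1 TPM. The deposited coverage of AMD1 was split alike, at 70.2, 24.6 and 78.8 in Hmx1 and 32.1, 83.9 and 85.4 in control tumours of LAN-1. Its listed pseudogenes, AMD1P1 to AMD1P4, reached at most 0.973 TPM in any library. The log2 difference LAN-1 minus SKNAS was 0.65 (SE 0.40, adjusted p = 0.192) in control and 0.85 (SE 0.40, adjusted p = 0.0872) in Hmx1 tumours. It passed in the controls without LAN-1 control replicate 1, at 1.08 (adjusted p = 0.0328), and in the Hmx1 arms without LAN-1 Hmx1 replicate 2, at 1.37 (adjusted p = 0.00455). For KELLY minus SKNAS it was 0.14 (SE 0.40, adjusted p = 0.777) in control tumours, where KELLY had 55.6, 141 and 103 TPM, and 0.58 (SE 0.40, adjusted p = 0.214) in Hmx1 tumours, where KELLY had 114.2, 101 and 95.0 TPM without overlap with SKNAS. In the Hmx1 arms both differences to SKNAS passed under median-ratio scaling, at 1.18 (adjusted p = 0.0101) for KELLY and 1.07 (adjusted p = 0.0201) for LAN-1, and under quantile normalization.

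SRM was also higher than in SKNAS in the control tumours of both other lines, at 231 ± 34.6 TPM in KELLY and 211 ± 9.90 TPM in LAN-1 against 138 ± 8.80 TPM in SKNAS. The log2 differences were 0.73 (SE 0.13, adjusted p = 9.20e-05) and 0.61 (SE 0.13, adjusted p = 0.000670), and both calls held in every alternative run. In the Hmx1 tumours, where SKNAS had its higher SRM level, the differences were 0.18 (SE 0.13, adjusted p = 0.221) and 0.11 (SE 0.13, adjusted p = 0.490) and did not pass. That for KELLY passed under median-ratio scaling, at 0.78 (adjusted p = 0.00112), and under quantile normalization and FPKM, while that for LAN-1 turned to -0.07 (adjusted p = 0.634) without mitochondrial transcripts. KELLY minus LAN-1 in the controls was 0.12 (SE 0.13, adjusted p = 0.461) on TPM and passed, at 0.61 (adjusted p = 0.00889), under median-ratio scaling.

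SMS had the opposite order. It averaged 202 ± 41.5 TPM in KELLY, 332 ± 5.13 TPM in LAN-1 and 397 ± 22.0 TPM in SKNAS control tumours, and the 3 lines did not overlap. It fell in KELLY, with a log2 difference of -0.74 (SE 0.14, adjusted p = 0.000256) to LAN-1 and -0.99 (SE 0.14, adjusted p = 7.09e-06) to SKNAS, whereas LAN-1 minus SKNAS, at -0.26 (SE 0.14, adjusted p = 0.130), did not pass. The LAN-1 difference passed in 6 alternatives, among them quantile normalization, at -0.48 (adjusted p = 0.000223), the values without mitochondrial transcripts, at -0.44 (adjusted p = 0.00249), and the fit without KELLY control replicate 1, at -0.26 (adjusted p = 0.0159). Under median-ratio scaling the KELLY differences shrank to -0.25 (adjusted p = 0.0710) to LAN-1 and -0.34 (adjusted p = 0.0134) to SKNAS. The call for KELLY minus LAN-1 was lost there and under quantile normalization. In Hmx1 tumours SMS averaged 242 ± 13.8, 306 ± 13.8 and 349.6 ± 14.9 TPM in KELLY, LAN-1 and SKNAS. There KELLY minus SKNAS was -0.53 (SE 0.14, adjusted p = 0.00289) on TPM and 0.07 (adjusted p = 0.586) under median-ratio scaling, so this call depends on the scaling. KELLY minus LAN-1 in the Hmx1 arms, at -0.33 (SE 0.14, adjusted p = 0.0527), passed in each fit without a KELLY control, at adjusted p-values of 0.00317 to 0.0475, through the pooled spread. Under median-ratio scaling this difference was 0.04 (adjusted p = 0.786).

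**Figure D3:**
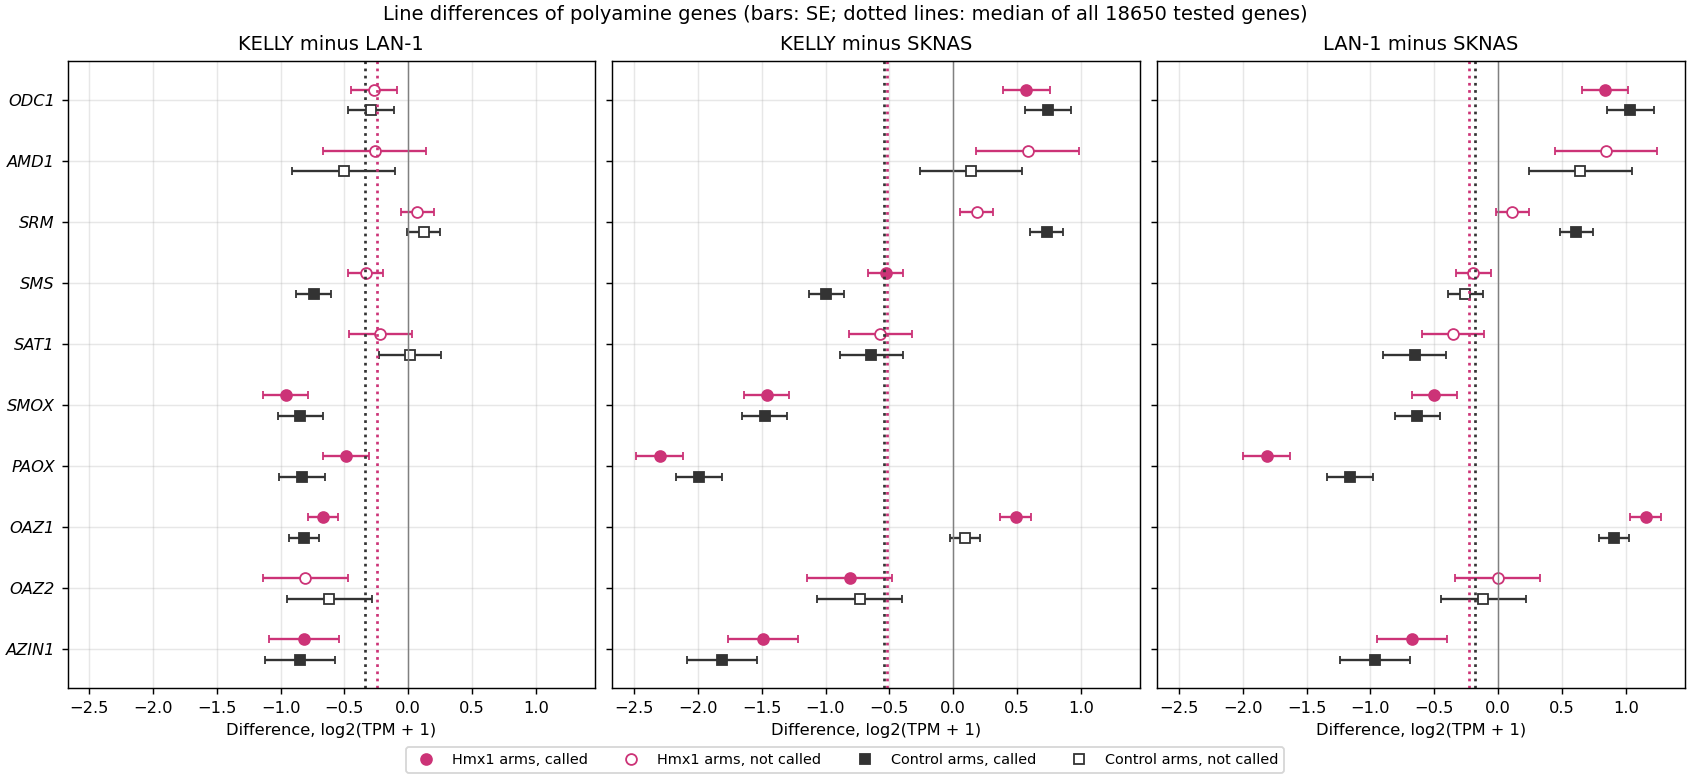
Log2 differences between lines for the 10 polyamine genes, in Hmx1 tumours (circles) and control tumours (squares), from limma on log2(TPM + 1) with SE bars. Filled symbols have an adjusted p under 0.05 and dotted lines mark the median of all genes tested. ODC1 lies right of 0 against SKNAS in both arms, while PAOX, SMOX and AZIN1 lie left of 0 in all 3 panels.

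The balance of the 2 aminopropyl transferases was also read within each library, where a single scaling factor per library leaves it unchanged. The ratio of SMS to SRM was 1.02 to 1.23 in KELLY Hmx1 and 0.606 to 1.18 in KELLY control libraries. It was 1.34 to 1.63 in LAN-1 Hmx1 and 1.49 to 1.67 in LAN-1 control libraries. In SKNAS it was 1.66 to 1.89 in Hmx1 and 2.84 to 2.91 in control libraries, so the SKNAS controls stood above all other libraries and the SKNAS Hmx1 arm next to the top of the LAN-1 range. These ratios are a description of TPM values, not of enzyme amounts.

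Of the genes that set ODC1 stability, OAZ1 and AZIN1 differed in opposite directions between LAN-1 and SKNAS. Between KELLY and LAN-1 they differed in the same direction. OAZ1 was highest in LAN-1, at 663 ± 25.8 TPM in Hmx1 and 610.5 ± 22.5 TPM in control tumours. KELLY averaged 419.6 ± 58.9 TPM in Hmx1 and 346 ± 15.6 TPM in control tumours, and SKNAS 297 ± 15.3 TPM in Hmx1 and 325 ± 21.3 TPM in control tumours. OAZ1 rose by 0.91 (SE 0.12, adjusted p = 4.59e-06) in LAN-1 relative to SKNAS controls and by 1.16 (SE 0.12, adjusted p = 2.48e-07) relative to SKNAS in the Hmx1 arms. KELLY was lower than LAN-1, with a log2 difference of -0.82 (SE 0.12, adjusted p = 2.08e-05) in control and -0.67 (SE 0.12, adjusted p = 0.000170) in Hmx1 tumours. Both calls were lost under median-ratio scaling, at -0.33 (adjusted p = 0.180) and -0.29 (adjusted p = 0.227). KELLY minus SKNAS was 0.09 (SE 0.12, adjusted p = 0.513) in controls, uncalled on TPM and called at 0.75 (adjusted p = 0.00340) under that scaling, and 0.49 (SE 0.12, adjusted p = 0.00163) in Hmx1 tumours.

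AZIN1, the antizyme inhibitor, was highest in SKNAS and, like OAZ1, lower in KELLY than in LAN-1. It had 88.5, 95.6 and 59.0 TPM in KELLY Hmx1 and 39.2, 108.3 and 98.5 TPM in KELLY control libraries. The LAN-1 Hmx1 libraries had 145, 130.2 and 146 TPM and the LAN-1 controls 135, 134 and 138 TPM. The SKNAS Hmx1 libraries had 208, 231 and 237 TPM and the SKNAS controls 309.7, 234 and 258 TPM. All KELLY libraries lay below all LAN-1 libraries, and these below all SKNAS libraries. AZIN1 fell in both lines relative to SKNAS controls, with a log2 difference of -1.81 (SE 0.27, adjusted p = 1.97e-05) in KELLY and -0.96 (SE 0.27, adjusted p = 0.00703) in LAN-1, and both calls held in every alternative run. In Hmx1 tumours the differences to SKNAS were -1.49 (SE 0.27, adjusted p = 0.000147) for KELLY and -0.68 (SE 0.27, adjusted p = 0.0464) for LAN-1. The LAN-1 call there was marginal: it was lost in 13 of 18 fits without 1 library, namely without any one library of LAN-1 or SKNAS or without KELLY Hmx1 replicate 1, at adjusted p-values of 0.0512 to 0.116.

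KELLY minus LAN-1 in AZIN1 was -0.85 (SE 0.27, adjusted p = 0.0156) in control and -0.81 (SE 0.27, adjusted p = 0.0206) in Hmx1 tumours. The control call was lost without KELLY control replicate 1, at -0.39 (adjusted p = 0.0726), and under median-ratio scaling, at -0.36 (adjusted p = 0.101), as it was under quantile normalization, without mitochondrial transcripts and with the compared groups alone. The Hmx1 call was lost without KELLY Hmx1 replicate 3, at -0.60 (adjusted p = 0.109), without LAN-1 Hmx1 replicate 1, at -0.79 (adjusted p = 0.0541), and without LAN-1 Hmx1 replicate 3, at -0.79 (adjusted p = 0.0539). It was also lost under quantile normalization, at -0.44 (adjusted p = 0.0628), and without mitochondrial transcripts, at -0.60 (adjusted p = 0.0535). Without KELLY control replicate 1, KELLY minus SKNAS in the controls was -1.35 (adjusted p = 5.50e-06).

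The ratio of AZIN1 to OAZ1 within a library, which a single scaling factor per library leaves unchanged, set SKNAS apart. It was 0.121 to 0.255 in KELLY Hmx1 and 0.110 to 0.330 in KELLY control libraries, 0.188 to 0.225 in LAN-1 Hmx1 and 0.211 to 0.229 in LAN-1 control libraries, and 0.705 to 0.815 in SKNAS Hmx1 and 0.776 to 0.900 in SKNAS control libraries. The ranges of the first 2 lines overlapped each other and not that of SKNAS. The ratio of ODC1 to OAZ1 did not separate the lines: it was 0.684 to 1.12 in KELLY Hmx1 and 0.740 to 1.56 in KELLY control libraries, 0.662 to 0.710 in LAN-1 Hmx1 and 0.729 to 0.800 in LAN-1 control libraries, and 0.844 to 0.888 in SKNAS Hmx1 and 0.640 to 0.761 in SKNAS control libraries.

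**Figure D4:**
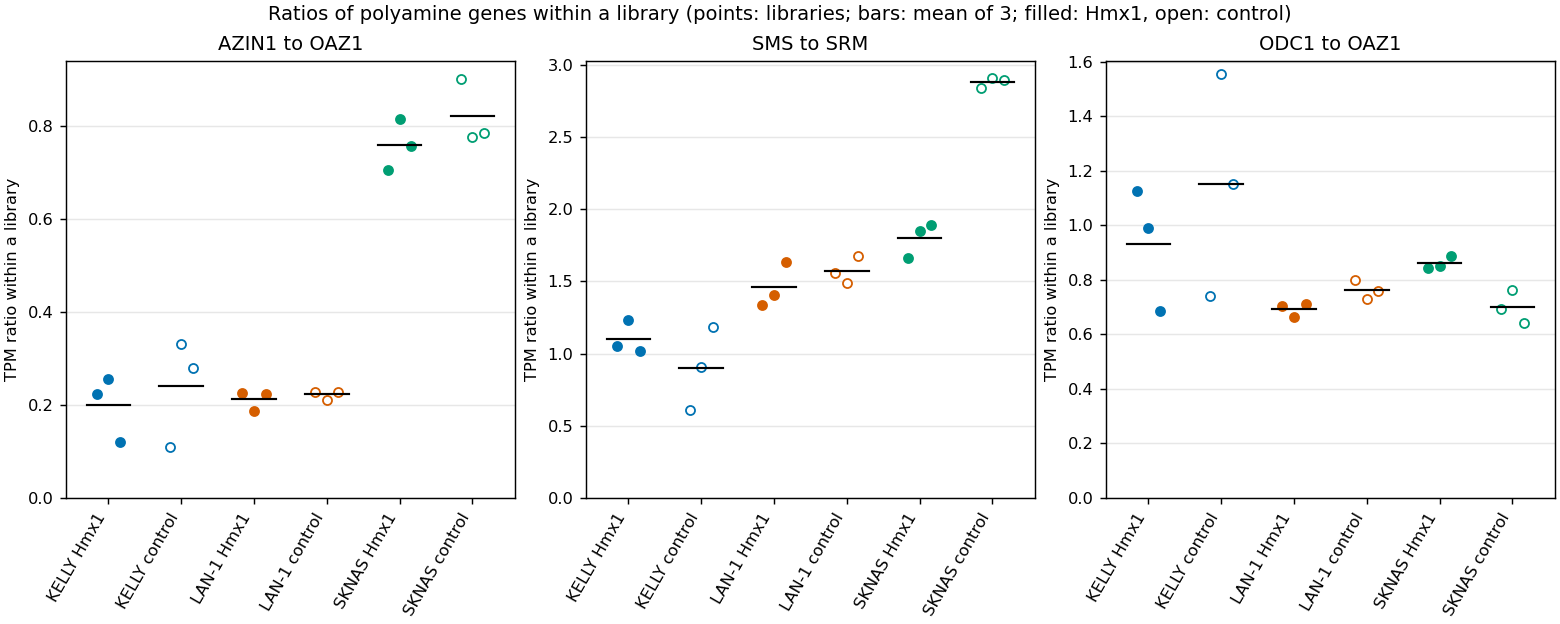
TPM ratios within each of the 18 libraries for AZIN1 to OAZ1, SMS to SRM and ODC1 to OAZ1, by line and arm. Points are libraries (filled for Hmx1, open for control) and horizontal bars the mean of 3. AZIN1 to OAZ1 is at least 0.705 in all 6 SKNAS libraries and at most 0.330 in the 12 others.

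OAZ2 did not pass between lines in the control tumours, where it averaged 35.9 ± 12 TPM in KELLY, 53.4 ± 2.08 TPM in LAN-1 and 58.1 ± 6.0 TPM in SKNAS. KELLY minus SKNAS was -0.73 (SE 0.33, adjusted p = 0.0627) there, and passed without KELLY control replicate 2, at -0.93 (adjusted p = 0.0338), and without SKNAS Hmx1 replicate 1, at -0.73 (adjusted p = 0.0296), a library that enters this difference only through the pooled spread. In Hmx1 tumours it was called at -0.81 (SE 0.33, adjusted p = 0.0418). That call was lost without SKNAS Hmx1 replicate 1, at -0.40 (adjusted p = 0.276), without KELLY Hmx1 replicate 1, at -0.69 (adjusted p = 0.125), and without KELLY Hmx1 replicate 2, at -0.66 (adjusted p = 0.137). It was also lost under median-ratio scaling, at -0.22 (adjusted p = 0.592), and quantile normalization, at -0.37 (adjusted p = 0.361), where the control difference was -0.09 and -0.12. KELLY minus LAN-1 in the Hmx1 arms, at -0.81 (SE 0.33, adjusted p = 0.0531), passed without KELLY Hmx1 replicate 3, at -1.08 (adjusted p = 0.0210), and in 5 other fits, without KELLY control replicates 1 or 2, LAN-1 Hmx1 replicate 2 or SKNAS Hmx1 replicates 1 or 3. Under median-ratio scaling this difference was -0.44 (adjusted p = 0.300).

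Of the breakdown genes, PAOX and SMOX were lowest in KELLY and highest in SKNAS. PAOX, the peroxisomal oxidase of acetylated polyamines, had 0.713, 0.533 and 0.717 TPM in KELLY Hmx1 and 0.757, 0.650 and 0.276 TPM in KELLY control libraries. It had 1.23, 1.46 and 1.26 TPM in LAN-1 Hmx1 and 1.39, 1.75 and 2.18 TPM in LAN-1 control libraries. In SKNAS, where the arms were given above, the lowest value was 4.32 TPM. The 3 lines did not overlap, and PAOX reached 1 TPM in 12 of 18 libraries, all of LAN-1 and SKNAS, through which it passed the filter on low values. Relative to SKNAS controls it fell in both lines, with a log2 difference of -1.99 (SE 0.18, adjusted p = 4.97e-08) in KELLY and -1.16 (SE 0.18, adjusted p = 3.86e-05) in LAN-1. In the Hmx1 tumours the log2 differences to SKNAS were -2.30 (SE 0.18, adjusted p = 8.27e-09) in KELLY and -1.81 (SE 0.18, adjusted p = 1.90e-07) in LAN-1. On the log2(TPM + 1) scale these differences understate the change of so low a gene.

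KELLY minus LAN-1 in PAOX was -0.83 (SE 0.18, adjusted p = 0.00102) in control tumours. In the Hmx1 arms it was -0.49 (SE 0.18, adjusted p = 0.0342), a call that was lost in 10 alternatives. These were the fits without each in turn of the 6 libraries compared, at adjusted p-values of 0.0563 to 0.102, median-ratio scaling, at -0.32 (adjusted p = 0.181), the values without mitochondrial transcripts, at -0.41 (adjusted p = 0.0902), FPKM, at -0.24 (adjusted p = 0.126), and no filter on low values.

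SMOX, spermine oxidase, had 3.06, 3.02 and 2.13 TPM in KELLY Hmx1 and 2.82, 3.89 and 2.60 TPM in KELLY control libraries. The LAN-1 Hmx1 libraries had 5.58, 6.02 and 7.13 TPM and the LAN-1 controls 6.10, 7.04 and 5.82 TPM. The SKNAS Hmx1 libraries had 9.17, 7.98 and 10.6 TPM and the SKNAS controls 9.28, 10.7 and 11.0 TPM. Again no library of one line lay within the range of another. In the controls SMOX fell in KELLY, with a log2 difference of -0.84 (SE 0.18, adjusted p = 0.000762) to LAN-1 and -1.48 (SE 0.18, adjusted p = 1.48e-06) to SKNAS, and in LAN-1, with -0.63 (SE 0.18, adjusted p = 0.00645) to SKNAS. In Hmx1 tumours the same differences were -0.96 (SE 0.18, adjusted p = 0.000254), -1.46 (SE 0.18, adjusted p = 1.74e-06) and -0.50 (SE 0.18, adjusted p = 0.0250). The LAN-1 minus SKNAS call was lost under quantile normalization in the controls, at -0.37 (adjusted p = 0.0584). In the Hmx1 arms it was lost without LAN-1 Hmx1 replicate 1 or 2, at -0.43 (adjusted p = 0.0781) and -0.48 (adjusted p = 0.0657), and without SKNAS Hmx1 replicate 1 or 3, at -0.50 (adjusted p = 0.0565) and -0.41 (adjusted p = 0.108). It was also lost there under median-ratio scaling, at -0.30 (adjusted p = 0.120), and quantile normalization, at -0.13 (adjusted p = 0.504).

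SAT1, the acetyltransferase, had the smallest span of group means among the 10 genes, at 0.65 on the log2 scale, beside 2.40 for PAOX, the widest. It averaged 17.5 ± 7.51 TPM in KELLY, 16.5 ± 1.54 TPM in LAN-1 and 26.9 ± 6.21 TPM in SKNAS control tumours, and 1 KELLY control, at 26.1 TPM, lay within the SKNAS range. The differences to SKNAS of -0.64 (SE 0.25, adjusted p = 0.0297) for KELLY and -0.65 (SE 0.25, adjusted p = 0.0337) for LAN-1 passed narrowly. The KELLY call was lost without SKNAS control replicate 2 and without KELLY control replicates 1 or 2, at adjusted p-values of 0.101 to 0.138, and was -0.01 (adjusted p = 0.979) under median-ratio scaling. The LAN-1 call was lost without SKNAS control replicates 2 or 3 and without any one of the 3 LAN-1 controls, at 0.0506 to 0.152, as well as under median-ratio scaling, at -0.49 (adjusted p = 0.131), and quantile normalization, at -0.46 (adjusted p = 0.164). In Hmx1 tumours SAT1 averaged 17.4 ± 4.48, 20.2 ± 3.81 and 25.8 ± 1.43 TPM in KELLY, LAN-1 and SKNAS, and the differences to SKNAS, -0.57 (SE 0.25, adjusted p = 0.0504) and -0.35 (SE 0.25, adjusted p = 0.242), did not pass. That for KELLY passed without KELLY Hmx1 replicate 2, at -0.76 (adjusted p = 0.0192), and also without any one KELLY control or SKNAS control replicate 2. Under median-ratio scaling it was 0.0018 (adjusted p = 0.998).

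Compared per length, OAZ1, ODC1 and SMS were the most abundant members and PAOX and SMOX the least. Over the 18 libraries the median level was 388 TPM for ODC1, 366 TPM for OAZ1, 320.4 TPM for SMS, 205 TPM for SRM and 137 TPM for AZIN1. AMD1, OAZ2 and SAT1 followed at 94.5, 54.0 and 20.7 TPM, and SMOX and PAOX at 6.06 and 1.42 TPM. The order of the abundant genes changed with the line: ODC1 was the highest of the 10 in KELLY control tumours, OAZ1 in LAN-1 and in KELLY Hmx1 tumours, and SMS in both SKNAS arms. Gene positions in the files read as GRCh37. ODC1 (ENSG00000115758, chr2:10580094-10588630, minus strand) lies on the short arm of chromosome 2, as MYCN does, and SRM (ENSG00000116649, chr1:11114641-11120081, minus strand) on that of chromosome 1. SMS (ENSG00000102172, chrX:21958691-22025798, plus strand) and SAT1 (ENSG00000130066, chrX:23801290-23804343, plus strand) are X-linked. AMD1 is ENSG00000123505, chr6:111195973-111216916, plus strand, and SMOX is ENSG00000088826, chr20:4101627-4168394, plus strand. PAOX is ENSG00000148832, chr10:135192695-135205198, plus strand. The antizyme genes are OAZ1 (ENSG00000104904, chr19:2269485-2273487, plus strand) and OAZ2 (ENSG00000180304, chr15:64979772-64995480, minus strand).

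The genes around ODC1 were called in both directions. Of 22 tested genes whose start lay within 1 Mb of that of ODC1, 4 rose and 5 fell in KELLY and 4 rose and 8 fell in LAN-1 relative to SKNAS control tumours. In KELLY relative to LAN-1, 5 rose and 3 fell. Among all genes tested, 16.1% rose and 49.5% fell in KELLY relative to SKNAS controls, 20.5% rose and 31.5% fell in LAN-1 relative to SKNAS controls, and 13.6% rose and 38.2% fell in KELLY relative to LAN-1 controls. NOL10, a nucleolar protein gene 130798 bases away, had -0.97 in LAN-1 and -0.24 in KELLY relative to SKNAS on the log2 scale, the first called and the second not. PDIA6, a protein disulfide isomerase gene, had -0.82, called, and -0.48, not called. HPCAL1, the nearest tested neighbour on the other side, rose in KELLY, by 0.62, and had 0.26, not called, in LAN-1. Farther out, GRHL1 rose by 1.63 and 1.97, while ADAM17, IAH1 and ROCK2 fell in both lines relative to SKNAS. TAF1B fell in KELLY, KLF11 rose in LAN-1, and SLC66A3 rose in KELLY (0.81) and fell in LAN-1 (-1.19). LINC01954 rose in LAN-1 relative to SKNAS, where it was listed at 0.

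**Figure D5:**
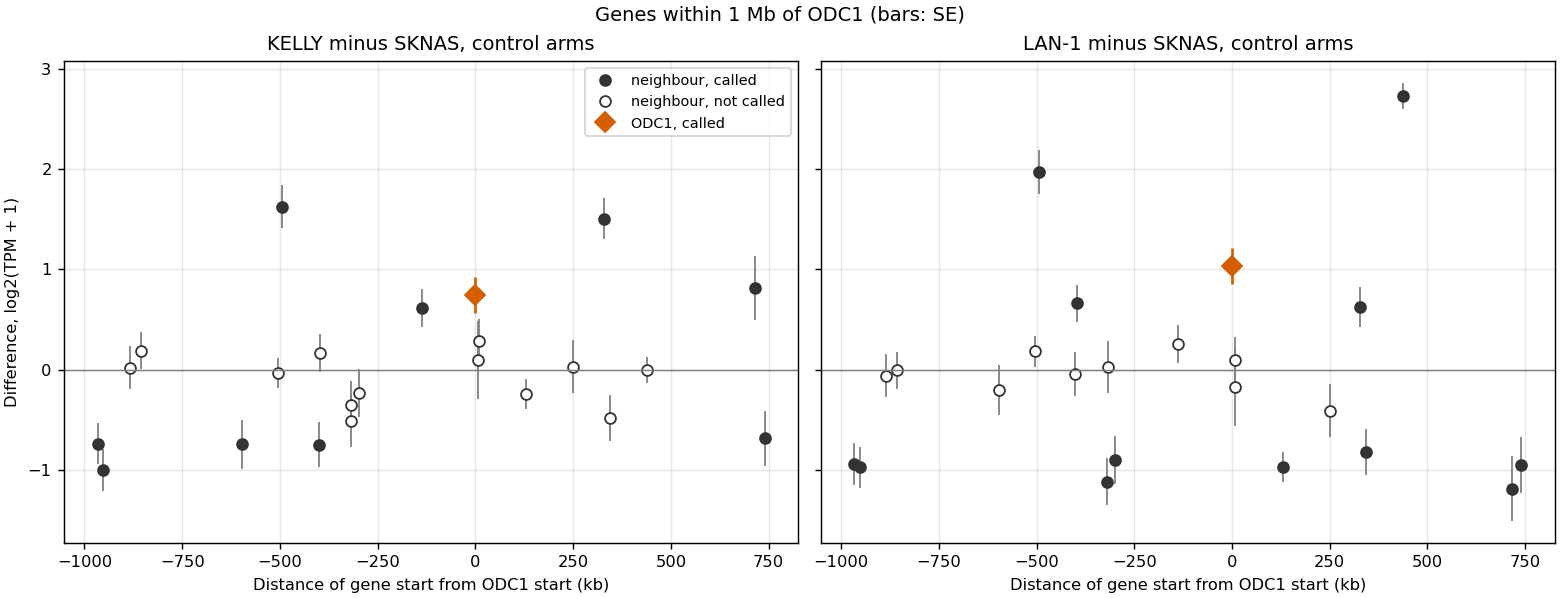
Log2 difference to SKNAS of ODC1 (diamond) and of the 22 tested genes within 1 Mb of its start (circles), in control tumours of KELLY and LAN-1, by distance in kb. Bars are SE and filled circles have an adjusted p under 0.05. Called neighbours lie on both sides of 0 in both panels (4 rose and 5 fell in KELLY, 4 rose and 8 fell in LAN-1).

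The neighbours of the other members are to be read against the same shares of all genes. Of 16 tested neighbours of AMD1, on chromosome 6, 13 rose and 1 fell in LAN-1 relative to SKNAS control tumours, 8 rose and 1 fell in KELLY relative to SKNAS, and 0 rose and 7 fell in KELLY relative to LAN-1. Of the 14 neighbours of SAT1, 2 rose and 10 fell in KELLY relative to SKNAS and 3 rose and 8 fell in LAN-1. Of the 17 of AZIN1, 3 rose and 13 fell in KELLY and 3 rose and 6 fell in LAN-1. Of the 64 of OAZ1, 9 rose and 26 fell in KELLY and 26 rose and 9 fell in LAN-1. For SRM, 8 of 30 rose and 13 fell in KELLY and 9 rose and 7 fell in LAN-1, and for SMS 1 of 4 rose and 3 fell in each of the 2 lines. For SMOX, 4 of 27 rose and 16 fell in KELLY and 6 rose and 6 fell in LAN-1. For PAOX, 2 of 23 rose and 11 fell in KELLY and 13 rose and 5 fell in LAN-1. For OAZ2, 4 of 29 rose and 11 fell in KELLY and 5 rose and 4 fell in LAN-1. These counts are a description, and copy number was not measured here.

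Genes with the most similar profile were found for the 6 members whose group means spanned at least 1 on the log2(TPM + 1) scale, by the root mean square difference of centred log2 values over 18 libraries, where 0 is the same profile. ODC1, whose own spread around its mean was 0.437, was nearest to LDHB (0.124), SKA2 (0.136) and ATP6V1B2 (0.148). LDHB, a lactate dehydrogenase subunit, averaged 2225 and 2648 TPM in KELLY and LAN-1 controls against 1412 TPM in SKNAS controls. AZIN1 was nearest to GATC (0.134), FNBP1L (0.142) and MAP3K20 (0.144), OAZ1 to NDUFB11 (0.141), DSCAML1 (0.151) and TDH-AS1 (0.163), SMOX to IFI27L1 (0.153), UNC119B (0.154) and ERN1 (0.160) and PAOX to VMAC (0.159), DLL4 (0.210) and WHAMMP2 (0.217). OAZ2 had no close partner, with DNPH1 (0.303), PPP1CA (0.317) and TEX22 (0.347) nearest beside its own spread of 0.541. Of the genes named, DSCAML1, TDH-AS1 and TEX22 averaged at most 1.14, 1.38 and 1.94 TPM in any group, and WHAMMP2 was at 0 in KELLY. The likeness of these low genes rests on values near the floor of the log2(TPM + 1) scale. Likeness here mostly follows the order of the 3 lines, and these profiles share their libraries.

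Around the core, lists of related genes were counted in the control tumours, where 51.8%, 65.7% and 52% of all genes tested were called for KELLY minus LAN-1, KELLY minus SKNAS and LAN-1 minus SKNAS, and the count of each list is to be read beside these shares. The methionine cycle and salvage genes supply AMD1 with S-adenosylmethionine and recycle what spermidine synthesis leaves. Of 10 tested, 0 rose and 7 fell in KELLY relative to LAN-1 controls, beside 38.2% of all genes that fell, and 0 rose and 9 fell relative to SKNAS controls, beside 49.5% of all genes, with a median log2 difference of -0.92 and -1.08 against -0.34 and -0.54 for all genes. MAT2A, which makes S-adenosylmethionine, averaged 193 ± 70.4 TPM in KELLY, 438 ± 39.3 TPM in LAN-1 and 323 ± 8.54 TPM in SKNAS control tumours. AHCY, another gene of the methionine cycle, averaged 221 ± 79.5, 513 ± 16.3 and 296 ± 22.7 TPM in the same order. In LAN-1 relative to SKNAS, 1 rose and 2 fell: AHCY rose, and MTAP, which salvages the by-product of SRM and SMS, fell, with a log2 difference of -1.87 (SE 0.39, adjusted p = 0.000612), as did MTR, which regenerates methionine. MTAP averaged 5.97 ± 1.55 TPM in KELLY, 6.31 ± 4.55 TPM in LAN-1 and 22.8 ± 3.31 TPM in SKNAS controls.

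Spermidine is also used to make hypusine, a modified amino acid found in EIF5A. EIF5A averaged 642 ± 172 TPM in KELLY and 841 ± 18.4 TPM in LAN-1, against 336 ± 69.4 TPM in SKNAS control tumours, and rose by 0.92 (SE 0.19, adjusted p = 0.000548) and 1.34 (SE 0.19, adjusted p = 1.70e-05). Of the 4 genes of this list, 3 rose and 0 fell in LAN-1 and 1 rose and 0 fell in KELLY relative to SKNAS controls, and 0 rose and 1 fell in KELLY relative to LAN-1 (EIF5A2). The median log2 difference of the list was -0.41 for KELLY minus LAN-1, 0.26 for KELLY minus SKNAS and 0.78 for LAN-1 minus SKNAS, against -0.34, -0.54 and -0.18 for all genes. DOHH and EIF5A2 rose with EIF5A in LAN-1, and DHPS, the first enzyme of the modification, did not pass in the controls. In the Hmx1 tumours EIF5A averaged 705 ± 54.2 and 779.7 ± 85.7 TPM in KELLY and LAN-1 against 334 ± 82.1 TPM in SKNAS.

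On the supply side, 8 genes of arginine and ornithine handling were tested, and in the control tumours 2 rose and 5 fell in KELLY relative to LAN-1, 3 rose and 4 fell in KELLY relative to SKNAS and 2 rose and 4 fell in LAN-1 relative to SKNAS. Their median log2 differences were -0.74, -0.31 and -0.44, beside the same medians of all genes as above. SLC7A1, a carrier of arginine and ornithine, averaged 33.3 ± 14.1 TPM in KELLY and 50.3 ± 1.67 TPM in LAN-1, against 11.8 ± 1.29 TPM in SKNAS controls, and rose by 1.34 (SE 0.28, adjusted p = 0.000407) and 2.01 (SE 0.28, adjusted p = 8.41e-06). SLC7A2, of the same gene family, ran the other way, at 3.54 ± 3.15, 12.1 ± 0.947 and 33.6 ± 14.6 TPM in KELLY, LAN-1 and SKNAS controls. Its log2 differences to SKNAS were -3.07 (SE 0.41, adjusted p = 5.18e-06) in KELLY and -1.30 (SE 0.41, adjusted p = 0.0136) in LAN-1. ASS1 fell too, with -4.04 (SE 0.17, adjusted p = 1.53e-12) in KELLY and -1.12 (SE 0.17, adjusted p = 2.39e-05) in LAN-1 relative to SKNAS controls. ARG2, an arginase that yields ornithine, averaged 14.1 ± 5.21, 28.2 ± 1.10 and 14.4 ± 2.34 TPM in KELLY, LAN-1 and SKNAS controls, fell in KELLY relative to LAN-1 and rose in LAN-1 relative to SKNAS. Between arms, ASS1, which makes argininosuccinate, rose in LAN-1 Hmx1 tumours to 755 ± 12.6 TPM, against 327 ± 17.8 TPM in LAN-1 controls, by 1.203 (SE 0.17, adjusted p = 0.00134). GATM, which uses arginine for creatine, rose in SKNAS Hmx1 tumours to 12.8 ± 2.73 TPM, against 3.24 ± 1.08 TPM in SKNAS controls, by 1.71 (SE 0.28, adjusted p = 0.000378). In each of these 2 lines the other 7 genes did not pass.

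Of 7 transport genes tested, 2 rose and 4 fell in KELLY relative to LAN-1 controls, 3 rose and 3 fell in KELLY relative to SKNAS controls and 2 rose and 2 fell in LAN-1 relative to SKNAS controls (medians -0.62, 0.15 and -0.19). SLC18B1, a vesicular polyamine transporter, was listed at 0 in all 6 LAN-1 libraries, averaged 26.2 ± 1.37 TPM in KELLY Hmx1 and 25.8 ± 9.17 TPM in KELLY control tumours, and 2.52 ± 0.850 TPM in SKNAS Hmx1 against 9.83 ± 0.452 TPM in SKNAS control tumours. It fell in SKNAS Hmx1 tumours relative to SKNAS controls, with a log2 difference of -1.65 (SE 0.22, adjusted p = 4.82e-05). ATP13A2, a lysosomal polyamine exporter, averaged 8.87 ± 2.62 TPM in KELLY, 21.6 ± 6.06 TPM in LAN-1 and 35.0 ± 18.2 TPM in SKNAS controls and fell in KELLY relative to SKNAS, with a log2 difference of -1.77 (SE 0.31, adjusted p = 0.000100). Of 6 other breakdown and regulatory genes, 0 rose and 4 fell, 1 rose and 3 fell and 1 rose and 1 fell in the same 3 comparisons (medians -0.81, -0.75 and 0.02). Beside the medians of both lists, those of all genes were -0.34, -0.54 and -0.18. AZIN2, the second antizyme inhibitor, averaged 1.29 ± 0.377, 6.04 ± 0.222 and 5.16 ± 1.47 TPM in KELLY, LAN-1 and SKNAS controls and fell in KELLY relative to both other lines. ABAT, which degrades GABA, a product that putrescine can feed, rose in SKNAS Hmx1 tumours to 7.0 ± 0.543 TPM, against 2.04 ± 0.322 TPM in SKNAS controls, by 1.40 (SE 0.22, adjusted p = 0.000362). NQO1, which binds ODC1 protein and slows its breakdown, fell relative to SKNAS controls, with a log2 difference of -1.96 (SE 0.27, adjusted p = 5.69e-06) in KELLY and -2.44 (SE 0.27, adjusted p = 5.21e-07) in LAN-1.

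Of 9 genes of the MYC network, which includes MYC, MYCN, their partner MAX and the MXD family that competes for it, 1 rose and 4 fell in KELLY relative to LAN-1 controls, 1 rose and 5 fell in KELLY and 4 rose and 1 fell in LAN-1 relative to SKNAS controls (medians -0.68, -0.56 and 0.26). For all genes tested the medians of these comparisons were -0.34, -0.54 and -0.18. MYC averaged 0.255 ± 0.0902 TPM in KELLY and 0.426 ± 0.427 TPM in LAN-1 control tumours, against 20.6 ± 7.33 TPM in SKNAS controls. MAX fell in KELLY relative to SKNAS controls, with a log2 difference of -0.56 (SE 0.23, adjusted p = 0.0381). That is close to the median of -0.54 for all genes in this comparison, and rescaled values are not given here for the wider lists. Between arms, MXD1 rose in LAN-1 Hmx1 tumours by 1.51 (SE 0.27, adjusted p = 0.0145) and MXI1 in SKNAS Hmx1 tumours by 0.71 (SE 0.19, adjusted p = 0.0262) relative to controls, beside the fall of MYC in SKNAS.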

How the data were processed

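Polyadenylated RNA of 18 xenograft tumour libraries, 3 per line and arm, was sequenced as paired reads from a strand-marking TruSeq library, per the labels' protocols. Reads were handled with bcl2fastq, FastQC and STAR, and the builds GRCh37 and GRCh38.p12 are named without a role, per the submitters' processing notes; the gene positions per the file headers' coordinate columns read as GRCh37, since the last gene of chromosome 1 ends at 249231242. The sources used here do not give the quantification tool, its annotation and strand setting, or any step that separated host from human reads. The authors deposited TPM per gene, and each library's TPM values sum to 1000000, so a rise in some transcripts lowers all others. The authors also deposited FPKM, used as an alternative, and mean coverage per gene (a signal), used as a description. No counts were given, so depth is unknown and no counting intervals can be had.

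Values of an identifier listed on several lines (8 to 12 identifiers per library) were summed, and symbols were matched by Ensembl identifier for 52181 of 63677. Tests used limma 3.58.1 in R 4.3.3 on log2(TPM + 1) of the 18650 genes at 1 TPM or more in at least 3 libraries, with 6 group means, a trend in the prior, 12 residual degrees of freedom, and Benjamini-Hochberg adjustment over all genes; calls had an adjusted p under 0.05. The fit was also run on simulated data with independent normal noise of the same spread in every group. Such data hold no outlying library, so the run does not bear on calls that depend on 1 library. The 10 genes, the wider lists (ornithine supply, methionine cycle and salvage, hypusine, transport, other breakdown and regulators, MYC network) and the markers were chosen with earlier results of these data known. Named were all 10 genes, members of the wider lists whose call is given, called neighbours of ODC1 with a symbol, and the 3 nearest profiles of genes spanning at least 1. The 28 alternatives were a pseudocount of 0.1, no filter, a minimum of 5 TPM, median-ratio scaling, quantile normalization, no mitochondrial transcripts, FPKM, the compared groups alone, no trend, library weights, and leaving out each library. Figures and tables used Python 3.11.15, pandas 2.3.3 and matplotlib 3.10.9. Promoter stretches are from RefSeq.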

Additional observations from a re-analysis of the deposited data

How the results depend on the processing

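Of 130 results (10 genes in 13 comparisons), 36 were called, and 21 of these kept their call and direction in all 28 alternatives; of the 94 not called, 67 were called in none. No paired analysis was possible because replicate numbers only follow accession order and the labels carry none. Median-ratio scaling left 0 polyamine genes called between Hmx1 and control tumours in SKNAS and 3 between KELLY and LAN-1 controls, and turned SMS in the Hmx1 arms of KELLY and SKNAS to 0.0717. Without mitochondrial transcripts 2 genes were called between the Hmx1 arms of KELLY and LAN-1, and 1 for the difference in Hmx1 effect between KELLY and SKNAS, as under quantile normalization (1), which also turned SAT1 in KELLY and SKNAS controls to 0.0234. With the compared groups alone, the effect difference between LAN-1 and SKNAS had 1 call. Library weights did not converge and gave KELLY control replicate 3 a weight of 130.4. With them, 2 genes were called for Hmx1 in KELLY, 1 for the mean effect, 2 for each effect difference between lines, 9 between KELLY and LAN-1 controls and 8 between LAN-1 and SKNAS Hmx1 arms. They turned SAT1 for Hmx1 in KELLY to -0.54 (adjusted p = 0.0222), SRM in KELLY and LAN-1 controls to -0.15 (adjusted p = 0.0187) and SAT1 in KELLY and SKNAS controls to 0.0101. Causes were not tested. Leaving out 1 library gave 0 to 0 calls for Hmx1 in KELLY, in LAN-1 and for the mean effect, and 0 to 1 in SKNAS. For the effect differences it gave 0 to 0 (KELLY and LAN-1), 0 to 1 (KELLY and SKNAS) and 0 to 0 (LAN-1 and SKNAS). For KELLY and LAN-1, KELLY and SKNAS, and LAN-1 and SKNAS, it gave 4 to 6, 6 to 8 and 6 to 8 in controls and 2 to 6, 5 to 8 and 3 to 5 in Hmx1 arms. Over all genes, Hmx1 calls in SKNAS numbered 1634, with 1211 to 2118 when 1 library was left out and 1028 to 2899 in the other alternatives. The same ranges were 12 to 49 and 0 to 3802 around 17 in KELLY, and 53 to 136 and 27 to 2254 around 84 in LAN-1, the highest being those with library weights. With no depth known, levels near 1 TPM, as of PAOX in KELLY, have an unknown counting error.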
